A study of Mus musculus with 4 samples.

Results

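Astrocytes were followed in mouse hippocampus through 32 genes that mark the cell type or carry its functions. The genes were taken from a list of symbols and matched to their Ensembl gene identifiers, and their measured levels played no part in the matching. The list itself was chosen with earlier results of these data known. All 32 were found among the 26328 genes listed in at least 1 sample, all 32 were listed in every sample, and all 32 were among the 18436 genes that were expressed highly enough to be tested. Poly(A) RNA was isolated from the hippocampus of male C57BL/6 mice in 2 wild-type (WT) samples and 2 Lsd1 knock-in (KI) samples, where KI denotes the replacement by alanine of the serine of LSD1 that PKCα phosphorylates. The mutation sits in the gene itself and no driver limits it to a cell type, so it is not specific to astrocytes or to the hippocampus. Littermates of 8 to 15 weeks were used for the behavioural part of the study, and the age of the sequenced mice was not given in the sources used here. No source states whether each sample came from 1 animal, so p-values measure the spread between these samples only, which may be technical.

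Astrocytes take up glutamate and potassium released by neurons, convert glutamate to glutamine, buffer water and ions at their endfeet on blood vessels, and supply neurons with lactate and with lipid carried on apolipoprotein particles. They are joined to each other by gap junctions built of connexins. In injury or inflammation they become reactive, a state in which the intermediate filaments GFAP and vimentin accumulate together with a set of secreted and immune proteins. LSD1, encoded by Kdm1a, removes methyl groups from lysines of histone H3.

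Expression is given in RPKM, reads scaled to the exon length of the gene and to the mapped reads of the sample, so that levels can be compared between genes as well as between samples. Mapped reads ranged from 8827967 in WT replicate 2 to 14949756 in KI replicate 2. Kdm1a itself was at 11.6 and 11.2 RPKM in WT and at 10.97 and 11.2 RPKM in KI (log2 fold change -0.04, adjusted p = 0.872 from limma). A level of mRNA does not check the labels here, because a change of 1 amino acid need not alter the amount of transcript. Throughout, 2 values joined by "and" for a group are replicate 1 and then replicate 2. Fold changes are KI over WT on the log2(RPKM + 1) scale, which understates the change of low genes. A gene was called at an adjusted p under 0.1 in limma with a change of at least 1.2-fold.

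Among the astrocyte genes the ratio of mean RPKM, KI over WT, ran from 0.779 for Bmpr1b to 1.27 for Gjb6. None of the 32 was called, as none of the 18436 genes tested was (0%). With 2 samples a group, the absence of calls does not show that levels were alike. Over the 32 genes the smallest adjusted p of an astrocyte gene was 0.331, against 0.197 over all genes. At an unadjusted p under 0.05, 7 astrocyte genes were higher in KI (21.9%, against 6.3% of all genes tested) and 4 were lower (12.5%, against 3.33%). In 13 genes both KI samples were above both WT samples (40.6%, against 24% of all genes tested) and in 8 they were below (25%, against 18.1%), and the samples of the other 11 overlapped. These shares were above the background in both directions, and no test of the list as a whole was made. The background was not matched to the level of the 32 genes. Among the 16073 genes whose reads numbered 10 or more per sample, 23.9% had both KI samples above both WT samples and 18.8% below. Whether the level of the 32 genes accounts for their larger shares was not tested. By size, 5 genes differed by at least 1.2-fold (15.6%, against 13.1%) and 27 by less, a share near the background. With voom weights on the reads recovered from the RPKM steps, an alternative added after the data were seen, limma called 1 astrocyte gene, against 0.727% of all genes tested as higher and 0.282% as lower. The median log2 fold change of the 32 was 0.06, against 0.01 over all genes tested, with 18 genes above 0 and 14 below. Without KI replicate 2 that median was 0.01, and without KI replicate 1 it was 0.02. Scaling each sample to its median ratio gave 13 genes above and 10 below, and quantile normalization gave 11 and 10. In bulk tissue, a change in the number of astrocytes and a change in RNA per astrocyte cannot be told apart, in either direction. Nor can either be told apart from a change in RNA of these genes from other cells.

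**Figure D1:**
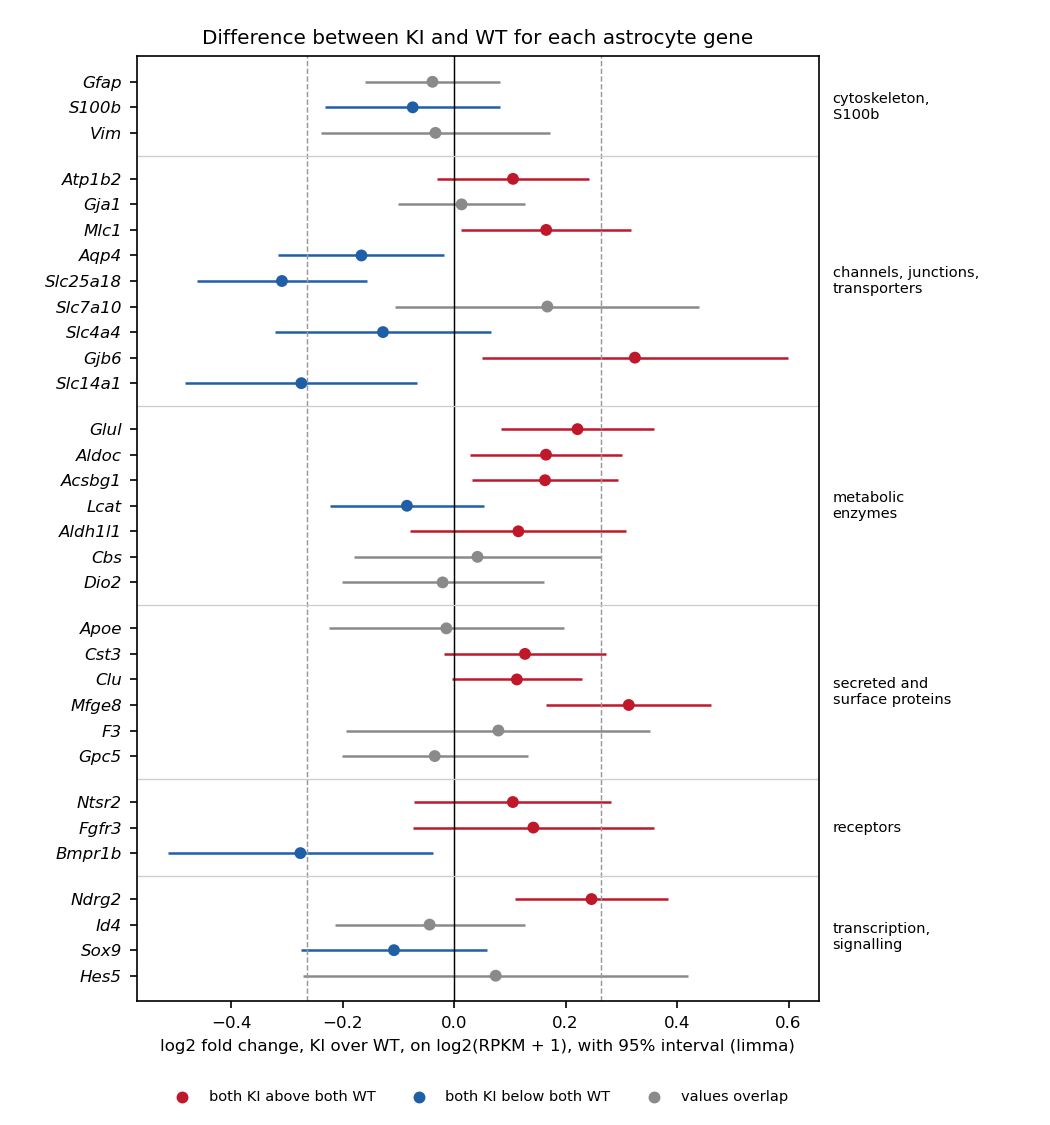
Difference between KI and WT for each of the 32 astrocyte genes. The horizontal axis is the log2 fold change on log2(RPKM + 1), dots are the estimates, lines the 95% intervals from limma before adjustment over genes, dashed lines mark 1.2-fold in either direction, and colours show whether both KI values lay above, below or among the WT values. Genes are grouped by role and ordered by level. Gjb6 and Mfge8 lie beyond 1.2-fold on the higher side and Slc25a18, Slc14a1 and Bmpr1b on the lower side, with all 4 samples in the fit.

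The 5 genes that differed by at least 1.2-fold were Gjb6 and Mfge8, higher in KI, and Slc25a18, Slc14a1 and Bmpr1b, lower in KI. On the log2(RPKM + 1) scale, which understates the change of low genes, each of the 5 came under 1.2-fold when 1 sample or another was left out. Mfge8 and Slc25a18 came only just under it, at 0.2604 and -0.2551. Ratios of RPKM were not recomputed without a sample, so these values do not show that the ratios fell under 1.2-fold. The 5 genes serve unlike roles, as a gap junction protein, a secreted protein, carriers of glutamate and urea, and a growth factor receptor. The promoters of 4 of them are shown, those with the largest differences on the log2(RPKM + 1) scale. By ratio of mean RPKM the order was another, with Slc14a1 at 0.788 and Slc25a18 at 0.80. RefSeq promoters (GRCm38.p6, 250 bases before to 50 after the start) were held for 27 of the 32 genes, with 36 starts in all. Each was searched on both strands for the E-box CACGTG, the STAT motif TTCNNNGAA, the RBPJ motif GTGGGAA, which serves Notch signalling, and the NFI motif TTGGC. Capitals mark the matches. The Mfge8 window lies at chr7:79149011-79149310 on the minus strand, that of Gjb6 at chr14:57133562-57133861 on the minus strand, that of Slc25a18 at chr6:120773518-120773817 on the plus strand, and that of Bmpr1b at chr3:141982215-141982514 on the minus strand. The Bmpr1b window belongs to the most upstream of its 3 starts in the table. It lies inside the annotated extent of the gene, chr3:141837136-142169425, and not at the upstream end of that extent.
Mfge8: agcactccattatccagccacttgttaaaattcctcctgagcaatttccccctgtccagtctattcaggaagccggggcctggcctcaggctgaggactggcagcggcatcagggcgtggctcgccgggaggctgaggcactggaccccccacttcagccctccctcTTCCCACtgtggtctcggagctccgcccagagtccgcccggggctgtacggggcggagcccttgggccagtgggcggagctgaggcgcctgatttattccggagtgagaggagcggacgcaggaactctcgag
Gjb6: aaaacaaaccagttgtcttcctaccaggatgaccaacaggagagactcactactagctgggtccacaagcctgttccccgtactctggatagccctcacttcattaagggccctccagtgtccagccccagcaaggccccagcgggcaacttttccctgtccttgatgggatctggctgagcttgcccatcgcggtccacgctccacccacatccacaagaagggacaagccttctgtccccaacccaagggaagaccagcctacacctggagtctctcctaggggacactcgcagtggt
Slc25a18: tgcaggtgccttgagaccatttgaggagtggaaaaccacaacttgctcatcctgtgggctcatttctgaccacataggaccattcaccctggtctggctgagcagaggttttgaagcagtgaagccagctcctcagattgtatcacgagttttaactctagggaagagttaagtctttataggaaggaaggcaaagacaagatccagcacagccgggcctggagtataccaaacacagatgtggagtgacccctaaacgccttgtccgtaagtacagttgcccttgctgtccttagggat
Bmpr1b: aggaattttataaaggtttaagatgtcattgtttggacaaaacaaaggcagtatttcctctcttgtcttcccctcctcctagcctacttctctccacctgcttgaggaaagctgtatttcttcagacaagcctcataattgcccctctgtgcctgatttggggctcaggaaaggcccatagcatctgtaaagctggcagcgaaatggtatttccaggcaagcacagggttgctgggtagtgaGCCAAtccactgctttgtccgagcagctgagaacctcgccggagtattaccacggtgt
The Mfge8 window held 1 match, TTCCCAC, the RBPJ motif read on the other strand, at -83 to -77 from the start. The Bmpr1b window held 1 match, GCCAA, the NFI motif on the other strand, at -8 to -4. In the windows of Gjb6 and Slc25a18 none of these letters was found. Over the 36 windows the E-box was in 5.56%, against 7.15% of the 32851 mouse promoters in the table, the STAT motif in 11.1% against 8.30%, the RBPJ motif in 11.1% against 6.38%, and the NFI motif in 55.6% against 46.7%. The STAT motif was in the windows of Gfap, Aldoc, Acsbg1 and Ntsr2, and the RBPJ motif in those of Mfge8, Aldoc and Hes5. The E-box was in those of Cbs and Ntsr2. A match is a description of the letters only.

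Levels spanned a wide range. Apoe, which encodes the main lipid carrier of the brain, was the most abundant, followed by Cst3, Glul and Ndrg2, and these 4 genes made up 60.0% of the summed RPKM of the list. In all, 7 genes had a mean over 100 RPKM, 18 were between 10 and 100, and 7 were under 10. When the genes were ordered by level, the sample ranges of neighbours overlapped for 20 pairs and were apart for 11. The levels of Cst3 and Glul were apart, as were those of Gfap and Gja1, whereas Apoe and Cst3 overlapped, and the 3 lowest genes, Slc14a1, Hes5 and Bmpr1b, overlapped with each other. Replicates were close, with a median coefficient of variation within a group of 3.46%. Hes5 rested on the fewest reads, 50 in WT replicate 2, and the other 31 genes had at least 100 reads in every sample.

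**Figure D2:**
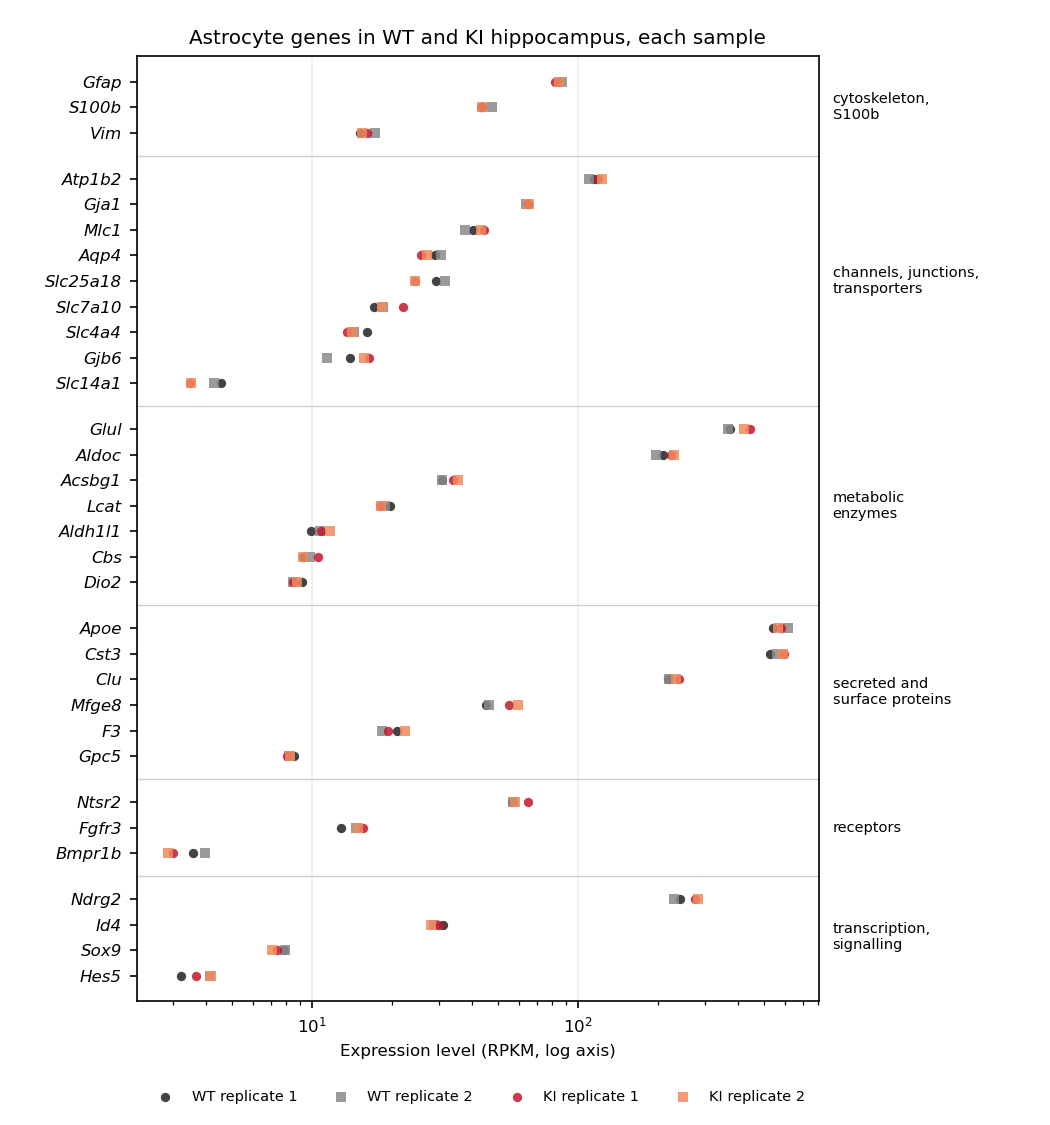
RPKM of the 32 astrocyte genes in each sample, on a log axis. Each row is a gene, grouped by role and ordered by level, with WT in black and grey and KI in red and orange, and circles for replicate 1 and squares for replicate 2. The spread between samples of a gene is small beside the differences in level between genes, from Bmpr1b at 2.87 RPKM in KI replicate 2 to Apoe at 614 RPKM in WT replicate 2.

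The 2 filament genes and S100b were not called, and their ratios of means, KI over WT, were 0.973 for Gfap, 0.974 for Vim and 0.948 for S100b. Gfap, the intermediate filament by which astrocytes are usually stained, was at 85.0 and 86.8 RPKM in WT and at 82.1 and 85.1 RPKM in KI. The KI values overlapped those of WT, the log2 fold change was -0.04, and its 95% interval ran from -0.16 to 0.08, so a difference of 1.2-fold lay outside the interval. Vim, the vimentin filament, was at 15.2 and 17.2 RPKM in WT and at 16.1 and 15.4 RPKM in KI, with both KI values between those of WT. S100b, a calcium-binding protein, was at 43.7 and 47.7 RPKM in WT and at 43.1 and 43.5 RPKM in KI. Both KI values were the lower ones, with KI replicate 2 just under WT replicate 1, and the log2 fold change was -0.07 (adjusted p = 0.726 from limma).

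The channels, gap junction proteins and transporters went both ways, with 3 of 9 higher in both KI samples, 4 lower in both and 2 overlapping, against 24% and 18.1% of all genes tested. Gjb6 (ENSMUSG00000040055, chr14:57123303-57133611 in GRCm38), which encodes connexin 30, was at 13.9 and 11.4 RPKM in WT (12.6 ± 1.78, SD, n = 2) and at 16.4 and 15.7 RPKM in KI (16.0 ± 0.50). Both KI samples were above both WT samples, of which WT replicate 2 was the lowest. The ratio of means was 1.27 and the log2 fold change 0.32 (SE 0.10, 95% interval 0.05 to 0.60, adjusted p = 0.490 from limma). Without WT replicate 2 it was 0.19, under 1.2-fold, and leaving out each sample in turn gave 0.19 to 0.46. Gja1, which encodes connexin 43, the other main astrocyte connexin, was at 65.1 and 63.7 RPKM in WT and at 64.7 and 65.3 RPKM in KI. Its values overlapped, and its log2 fold change of 0.01 turned to -0.01 under quantile normalization and to -0.0016 under median-ratio scaling.

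Slc25a18 (ENSMUSG00000004902, chr6:120773578-120794336 in GRCm38), a mitochondrial glutamate carrier, was at 29.4 and 31.7 RPKM in WT (30.6 ± 1.66, SD, n = 2) and at 24.5 RPKM in both KI samples. Both KI samples were below both WT samples by more than the WT samples differed from each other. The ratio of means was 0.80 and the log2 fold change -0.31 (SE 0.06, 95% interval -0.46 to -0.16, adjusted p = 0.340 from limma). Slc14a1 (ENSMUSG00000059336), a urea transporter, was at 4.57 and 4.31 RPKM in WT (4.44 ± 0.18, SD, n = 2) and at 3.48 and 3.52 RPKM in KI (3.50 ± 0.02). Here too both KI values were the lower ones, with a ratio of means of 0.788. The log2 fold change was -0.27 (SE 0.08, 95% interval -0.48 to -0.07, adjusted p = 0.468 from limma).

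Aqp4, the water channel of astrocyte endfeet, was at 29.0 and 30.5 RPKM in WT and at 25.7 and 27.1 RPKM in KI. The KI values lay below those of WT without overlap, with a log2 fold change of -0.17 (adjusted p = 0.490 from limma). Slc4a4, a sodium bicarbonate cotransporter, was at 16.1 and 14.4 RPKM in WT and at 13.6 and 14.2 RPKM in KI. KI replicate 2 and WT replicate 2 were close to each other, so that the separation rested on a small gap. Mlc1, a membrane protein of astrocyte endfeet, was at 40.5 and 37.5 RPKM in WT and at 44.5 and 43.1 RPKM in KI. Atp1b2, a beta subunit of the sodium-potassium pump, was at 115 and 110 RPKM in WT and at 118 and 124 RPKM in KI. Both were higher in the KI samples, with log2 fold changes of 0.17 for Mlc1 and 0.11 for Atp1b2. Slc7a10, which carries small neutral amino acids such as D-serine, was at 17.1 and 18.4 RPKM in WT and at 22.02 and 18.3 RPKM in KI, so that only KI replicate 1 was above both WT samples.

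Of the 7 metabolic enzymes, 4 were higher in both KI samples, 1 was lower in both and 2 overlapped (all genes tested, 24% and 18.1%), and the median log2 fold change was 0.12. Glul (ENSMUSG00000026473, chr1:153899944-153909723 in GRCm38), glutamine synthetase, which turns glutamate into glutamine, was at 371 and 367 RPKM in WT (369 ± 3.14, SD, n = 2) and at 442 and 419 RPKM in KI (430 ± 16.2). Both KI samples were above both WT samples, and the gap between the groups exceeded the difference between the KI samples. The ratio of means was 1.17 and the log2 fold change 0.22 (SE 0.05, 95% interval 0.08 to 0.36, adjusted p = 0.408 from limma). With voom weights the adjusted p of Glul in limma was 0.067, with a change under 1.2-fold. Aldoc, the aldolase of brain glycolysis, was at 208 and 197 RPKM in WT and at 224 and 230 RPKM in KI. Acsbg1, which activates long-chain fatty acids, was at 30.9 and 30.8 RPKM in WT and at 33.8 and 35.5 RPKM in KI. These genes had log2 fold changes of 0.16 each, and no KI value lay in the WT range.

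Aldh1l1, a folate enzyme that marks astrocytes across the brain, was at 9.93 and 10.7 RPKM in WT and at 10.8 and 11.7 RPKM in KI. KI replicate 1 lay just above WT replicate 2, and the log2 fold change was 0.12 (adjusted p = 0.657 from limma). Lcat, which esterifies cholesterol on lipoproteins, was at 19.6 and 18.8 RPKM in WT and at 18.0 and 18.1 RPKM in KI, the single enzyme with both KI values below. Cbs, cystathionine beta-synthase, was at 9.28 and 9.86 RPKM in WT and at 10.5 and 9.26 RPKM in KI. Dio2, the deiodinase that activates thyroid hormone, was at 9.16 and 8.50 RPKM in WT and at 8.53 and 8.84 RPKM in KI. The samples of Cbs and Dio2 were intermixed.

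Among the 6 secreted and surface proteins, 3 were higher in both KI samples, 0 were lower in both and 3 overlapped, beside the same 24% and 18.1% of all genes. Mfge8 (ENSMUSG00000030605, chr7:79133768-79149060 in GRCm38), a secreted protein that bridges phosphatidylserine on dying cells to integrins of phagocytes, was at 45.3 and 46.3 RPKM in WT (45.8 ± 0.76, SD, n = 2) and at 55.0 and 59.3 RPKM in KI (57.2 ± 3.02). Both KI samples were well above both WT samples, which were close to each other. The ratio of means was 1.25 and the log2 fold change 0.31 (SE 0.06, 95% interval 0.17 to 0.46, adjusted p = 0.331 from limma), the smallest adjusted p of the list. With voom weights, Mfge8 was the single astrocyte gene called by limma (log2 fold change 0.32, adjusted p = 0.039).

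Apoe (ENSMUSG00000002985, chr7:19696109-19699188 in GRCm38) was at 538 and 614 RPKM in WT (576 ± 54.0, SD, n = 2) and at 577 and 562 RPKM in KI (570 ± 11.2). Both KI values lay between those of WT, whose replicates differed more than those of KI. The ratio of means was 0.988 and the log2 fold change -0.01 (SE 0.08, 95% interval -0.23 to 0.20, adjusted p = 0.976 from limma). Cst3 (ENSMUSG00000027447, chr2:148871722-148875692 in GRCm38), cystatin C, an inhibitor of cysteine proteases, was at 526 and 558 RPKM in WT (542 ± 22.4, SD, n = 2) and at 594 and 589 RPKM in KI (591 ± 3.72). The KI values were both above those of WT, with a ratio of means of 1.09. The log2 fold change was 0.13 (SE 0.06, 95% interval -0.02 to 0.27, adjusted p = 0.548 from limma). Clu, clusterin, an extracellular chaperone, was at 217 and 220 RPKM in WT and at 239 and 234 RPKM in KI, without overlap. F3, tissue factor, which starts blood coagulation, was at 20.98 and 18.3 RPKM in WT and at 19.3 and 22.4 RPKM in KI. Gpc5, a glypican, was at 8.59 and 8.24 RPKM in WT and at 8.09 and 8.29 RPKM in KI. The values of F3 and Gpc5 overlapped.

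All 3 receptors had values without overlap between the genotypes, in unlike directions, 2 higher and 1 lower in KI (24% and 18.1% of all genes tested). Bmpr1b (ENSMUSG00000052430, chr3:141837136-142169425 in GRCm38), a type I receptor for bone morphogenetic proteins, was at 3.58 and 3.97 RPKM in WT (3.77 ± 0.28, SD, n = 2) and at 3.01 and 2.87 RPKM in KI (2.94 ± 0.10). Both KI samples were below both WT samples, and the ratio of means was 0.779. The log2 fold change was -0.28 (SE 0.09, 95% interval -0.51 to -0.04, adjusted p = 0.490 from limma). Ntsr2, a neurotensin receptor, was at 56.6 and 57.0 RPKM in WT and at 64.7 and 57.9 RPKM in KI. Fgfr3, a fibroblast growth factor receptor, was at 12.8 and 14.7 RPKM in WT and at 15.6 and 14.9 RPKM in KI. In both genes 1 KI sample lay just above the WT samples, KI replicate 2, and the log2 fold changes were 0.11 for Ntsr2 and 0.14 for Fgfr3.

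The regulators held 1 gene higher, 1 lower and 2 overlapping, where 24% and 18.1% of all genes tested were higher and lower. Ndrg2, a cytoplasmic protein abundant in astrocytes, was at 242 and 229 RPKM in WT and at 276 and 283 RPKM in KI. Both KI samples were above both WT samples, with a log2 fold change of 0.25 (adjusted p = 0.366 from limma), and with voom weights its adjusted p was 0.046 with a change under 1.2-fold. Sox9, a transcription factor that astrocytes need to form, was at 7.86 and 7.92 RPKM in WT and at 7.38 and 7.12 RPKM in KI. The KI values were the lower ones, with a log2 fold change of -0.11 (adjusted p = 0.634 from limma). Id4, an inhibitor of basic helix-loop-helix factors, was at 31.0 and 28.9 RPKM in WT and at 30.03 and 28.0 RPKM in KI. Hes5, a target of Notch, was at 3.23 and 4.16 RPKM in WT and at 3.67 and 4.17 RPKM in KI, and the values of both genes overlapped. Hes5 is the single gene of the list on the chromosome of Kdm1a, chromosome 4, at a distance of 18.4 Mb.

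**Figure D3:**
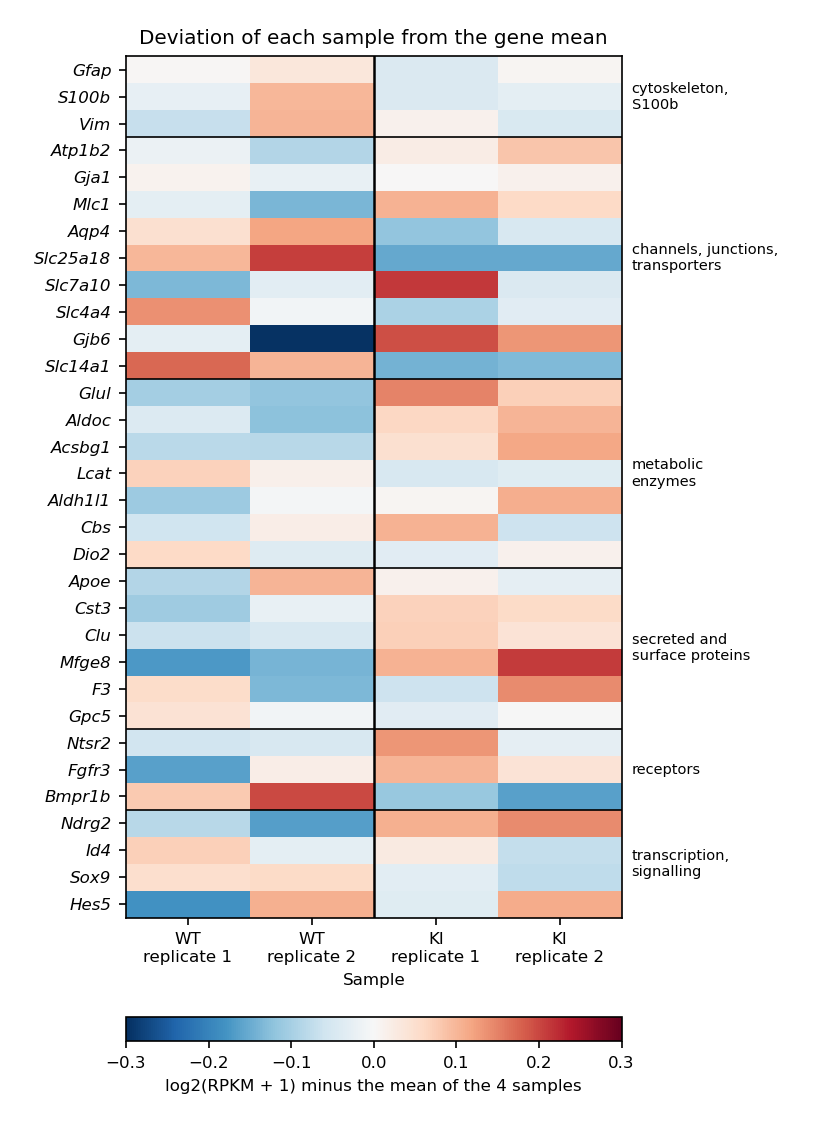
Deviation of each sample from the mean of the 4 samples, for the 32 astrocyte genes in rows and the samples in columns. Colour gives log2(RPKM + 1) minus the gene's mean, red above and blue below, and the thick line divides WT from KI. The largest deviation is that of Gjb6 in WT replicate 2, at -0.30, and no sample is above or below the mean for all genes.

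No single sample held the lowest or the highest value for most of these genes. WT replicate 1 had the lowest value of the 4 samples for 10 genes and WT replicate 2 for another 10, against 7 for KI replicate 1 and 5 for KI replicate 2. The highest value was in WT replicate 1 for 6 genes, in WT replicate 2 for 8, and in each KI sample for 9. The mean of log2(RPKM + 1) over the 32 genes was 5.11 and 5.12 in WT and 5.15 in both KI samples. With 2 samples in each group, an exact permutation test of such a mean (two-sided) cannot give a p below 0.333. The same mean over all genes tested was 2.90 in both WT samples and 2.93 in both KI samples. The summed RPKM of the 32 genes was 2846 and 2926 in WT and 3116 and 3084 in KI. Both KI sums were above both WT sums, and Apoe, Cst3, Glul and Ndrg2 made up 60.0% of the summed level. Over all genes tested the sum was 348484 and 346777 in WT and 351771 and 354180 in KI. The difference in sums was not tested.

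Further astrocyte genes, a list of 30 that does not share a gene with the 32, lay close to them. Of the 30, 0 were called in limma (3 had an unadjusted p under 0.05, all higher in KI, against 6.3% of all genes tested). In 10 both KI samples were higher and in 2 lower, against 24% and 18.1% of all genes, and the median log2 fold change was 0.06 against 0.01. Fam107a, a stress-responsive actin-binding protein, was at 79.3 and 67.4 RPKM in WT and at 105 and 96.7 RPKM in KI, a log2 fold change of 0.46 (adjusted p = 0.364 from limma). Htra1, a secreted serine protease, was at 42.3 and 40.7 RPKM in WT and at 50.7 and 51.7 RPKM in KI, a log2 fold change of 0.30 (adjusted p = 0.307 from limma). Both genes had their KI values above their WT values by more than the replicates differed, and both were called with voom weights (adjusted p = 0.015 and 0.051). The glutamate transporters Slc1a2 and Slc1a3, chosen here after their values were seen because they take up synaptic glutamate, had log2 fold changes of 0.08 and 0.11 (limma adjusted p = 0.674 and 0.527). Slc1a2 was at 184 and 173 RPKM in WT and at 190 and 186 RPKM in KI. Slc1a3 was at 65.1 and 64.3 RPKM in WT and at 68.8 and 71.0 RPKM in KI, again without overlap.

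Of 35 genes known to rise in reactive astrocytes, 34 were listed and 26 tested, and 0 were called in limma. An unadjusted p under 0.05 was reached by 5, all higher in KI, against 6.3% of all genes tested. In 9 the KI samples were both higher and in 5 both lower, against 24% and 18.1% of all genes tested, and the median log2 fold change was 0.09. Lcn2, lipocalin 2, an iron-siderophore binding protein that neutrophils and other cells also make, was at 0.032 and 0.049 RPKM in WT and at 1.87 and 3.98 RPKM in KI. It rested on 2 reads in the WT samples together and on 199 in the KI samples together, a ratio of read rates of 75.5 (exact 95% interval 20.6 to 627, for counting error only). The log2 fold change was 1.86 (adjusted p = 0.307 from limma, 0.029 with voom weights). H2-D1, a class I histocompatibility gene with near-identical relatives, was at 12.4 RPKM in both WT samples and at 15.2 and 19.0 RPKM in KI. Only uniquely mapped pairs were kept, so pairs that match more than 1 of these relatives were not counted. The KI values of H2-D1 were both the higher ones, with a log2 fold change of 0.43 (adjusted p = 0.435 from limma, 0.082 with voom weights). Some genes of low level had larger ratios of mean RPKM than the 1.38 of H2-D1, which the log2(RPKM + 1) scale shrinks. The ratio was 1.51 for Gbp2, an interferon-induced GTPase, 1.45 for H2-T23, another class I histocompatibility gene, and 1.42 for Hspb1, a small heat shock protein. Gbp2 was at 1.48 and 1.35 RPKM in WT and at 1.91 and 2.37 RPKM in KI. H2-T23 was at 1.65 and 1.84 RPKM in WT and at 2.33 and 2.73 RPKM in KI. Hspb1 was at 2.02 and 1.87 RPKM in WT and at 2.43 and 3.11 RPKM in KI. In these 3 genes both KI samples were the higher ones, with adjusted p of 0.490, 0.483 and 0.507 in limma. Stat3, a transcription factor of the reactive state, was lower in both KI samples, at 5.47 and 5.81 RPKM in WT and at 4.75 and 5.41 RPKM in KI. Aspg, another gene of low level, was at 0.74 and 0.83 RPKM in WT and at 0.56 and 0.49 RPKM in KI. Its ratio was 0.67, with both KI samples lower (adjusted p = 0.609 from limma). The other tested genes lower in both KI samples were S1pr3, Amigo2 and Tm4sf1, with ratios of 0.853, 0.899 and 0.936. All genes named here from Gbp2 on were named after their values were seen. Gfap and Vim, the filaments of the reactive state, overlapped between the genotypes as described.

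**Figure D4:**
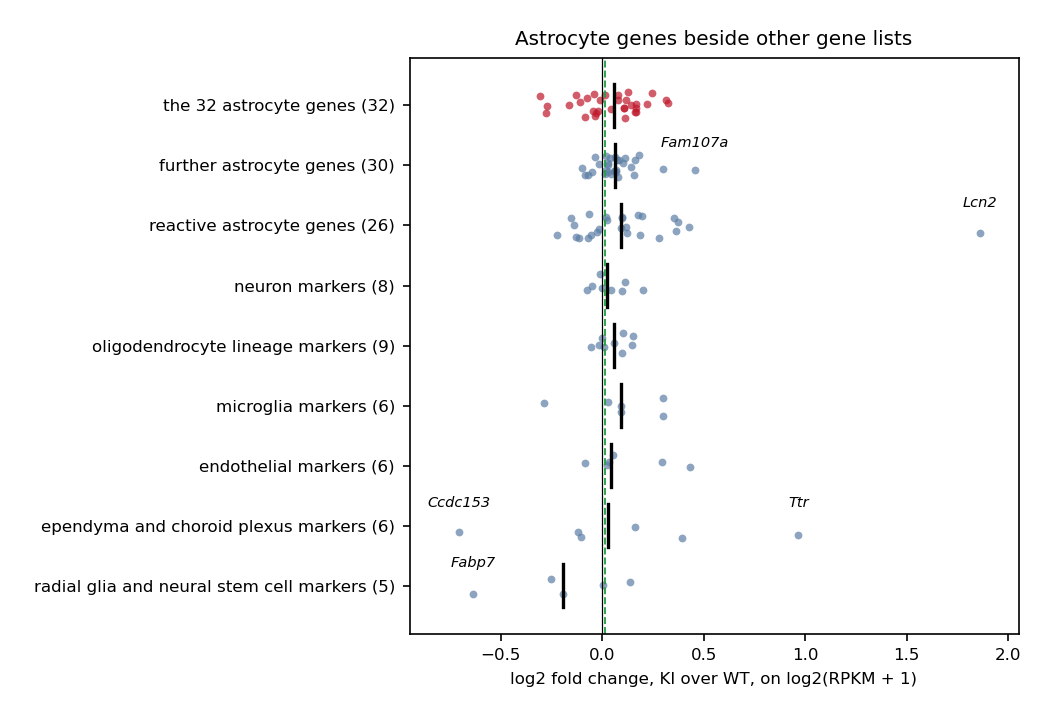
Log2 fold change of each tested gene, KI over WT on log2(RPKM + 1), for the 32 astrocyte genes (red) and the other lists (blue), with the number of genes in parentheses. Black bars are the median of each list and the dashed green line is the median of all genes tested. The medians of the 3 astrocyte lists lie between 0.06 and 0.09, and Lcn2, Ttr, Fam107a, Ccdc153 and Fabp7 lie away from the rest of their lists.

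Markers of other cell types were read beside the astrocyte genes, and 0 of their genes were called in limma. Over all genes tested, 24% were higher in both KI samples and 18.1% lower, the shares to set beside the counts below. An unadjusted p under 0.05 was reached by 1 neuron, 2 microglia and 2 endothelial markers, all higher in KI. It was also reached by 1 ependyma or choroid plexus marker in each direction, and by 1 radial glia marker, lower in KI. Of all genes tested, 6.3% reached it as higher and 3.33% as lower. With voom weights limma called Ly6c1 and Kl as higher, and Ccdc153 and Fabp7 as lower, Kl being named after its values were seen. Of all genes tested it called 0.727% as higher and 0.282% as lower. The sum of the oligodendrocyte markers was high in WT replicate 2 and KI replicate 1 and low in the other two samples, at 875 and 1002 RPKM in WT and 1110 and 839 RPKM in KI. Of 9 such genes tested, 1 was higher in both KI samples and 0 lower, and the largest differences were those of Mobp at 0.15 and Cspg4 at 0.15 on the log2 scale. The 8 neuron markers summed to 1373 and 1396 RPKM in WT and 1429 and 1393 RPKM in KI, with 3 higher in both KI samples and 1 lower, led by Tubb3 at 0.20 and Stmn2 at 0.11. Microglia markers summed to 97.8 and 95.3 RPKM in WT and 105 and 95.6 RPKM in KI, with 3 of 6 higher in both KI samples and 1 lower, led by Aif1 at 0.30 and Tmem119 at 0.30. The lower one was P2ry12, a purine receptor of resting microglia named after its values were seen, at 16.1 and 16.8 RPKM in WT and at 15.5 and 11.4 RPKM in KI, a log2 fold change of -0.29 (adjusted p = 0.587 from limma). Endothelial markers summed to 58.6 and 66.6 RPKM in WT and 68.6 and 76.1 RPKM in KI, with 3 of 6 higher and 1 lower, led by Ly6c1 at 0.43 and Pecam1 at 0.30. The median log2 fold changes of these lists were 0.06 for oligodendrocytes, 0.02 for neurons, 0.09 for microglia and 0.04 for endothelium, and their part in the astrocyte values was not tested.

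Ependyma and choroid plexus markers did not move together, and Ttr most strongly set a single sample apart. Ttr, which the choroid plexus makes in large amounts, was at 8.13 and 13.8 RPKM in WT and at 51.3 and 8.89 RPKM in KI, so KI replicate 1 alone was high. The log2 fold change of Ttr, 0.97, became -0.24 without KI replicate 1. Foxj1, Tmem212, Folr1 and Kl were also highest in KI replicate 1, by smaller margins. Rarres2 and Ccdc153 were highest in a WT sample and Aqp1 in KI replicate 2. These orders were read after the values were seen, and their cause was not tested. Of the 6 genes tested, 1 was higher in both KI samples and 1 lower (all genes tested, 24% and 18.1%). The higher one was Kl, at 4.87 and 5.14 RPKM in WT and at 7.05 and 6.72 RPKM in KI. Its log2 fold change was 0.39 (adjusted p = 0.340 from limma, 0.018 with voom weights). The lower one was Ccdc153, a gene of motile cilia, at 4.8 and 5.84 RPKM in WT and 3.65 and 2.22 RPKM in KI. The list's median was 0.03. Radial glia and neural stem cell markers, of which several are also expressed in astrocytes, had a median of -0.20. Of these 5, 1 was higher in both KI samples and 3 lower (all genes tested, 24% and 18.1%). Fabp7, a fatty acid binding protein of radial glia and of some astrocytes, was at 10.1 and 12.0 RPKM in WT and at 6.68 and 6.80 RPKM in KI. Both KI values were well below those of WT, with a log2 fold change of -0.64 (adjusted p = 0.307 from limma, 0.057 with voom weights). Tnc, an extracellular matrix glycoprotein, had a log2 fold change of -0.25, which was -0.14 without WT replicate 2 (adjusted p = 0.602 from limma with all samples).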

How the data were processed

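Poly(A) RNA of 2 WT and 2 KI hippocampal samples was sequenced in pairs. The authors aligned the pairs to mm10 with GSNAP (version 2013-11-27), kept unique and proper pairs, and deposited RPKM per Ensembl gene for each sample. A gene not listed in a sample was given 0. Groups were taken from the labels. Symbols and positions were taken from GENCODE M21 (GRCm38, the build of mm10).

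log2(RPKM + 1) was compared with limma (version 3.58.1, R version 4.3.3; mean-variance trend, Benjamini-Hochberg adjustment, two-sided) over 18436 genes, those at 0.5 RPKM or more in 2 or more samples. Every value was a whole number of reads, within a relative tolerance of 1e-06, for 100% of genes. The mapped reads per sample follow from these steps. Reads per gene used the gene length nearest to that of GENCODE M21, which was equal for 15467 of 26328 genes. The study tested with edgeR, which was not run here. RPKM were tested on the log scale, and voom weights on the recovered reads were added as an alternative. Intervals on reads cover counting error only.

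The code was tested on simulated data with known changes. That test is no evidence that 2 samples a group can detect changes as small as those seen here.

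Every astrocyte gene is named with its values. Full statistics were given for genes whose groups did not overlap with a ratio of at least 1.2, for the 5 largest log2 fold changes and for the 3 highest levels, and in each other list the 2 largest changes were named. The astrocyte genes and the other lists were chosen with earlier results of these data known. The alternatives tried were the pseudocount, the filter on low values, scaling, the trend, the fold threshold, a replicate block and leaving out each sample. Figures and tables were made with Python (version 3.11.15).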

Additional observations from a re-analysis of the deposited data

How the results depend on the processing

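Over 384 recomputed fold changes of astrocyte genes, 369 kept their direction and their call (adjusted p and fold together), and 24 of the 32 genes had no reversal. With at least 10 reads in every sample the genes called over the whole table were 1, without the mean-variance trend 20 and with voom weights on the reads, added after the data were seen, 186 (134 higher, 52 lower). Only voom weights called an astrocyte gene, and they called 1, Mfge8. The median log2 fold change of the 32 genes was 0.0643 with a pseudocount of 0.1, 0.0356 after quantile normalization and 0.0454 after median-ratio scaling, and leaving out 1 sample gave 0.0067 to 0.0761. Gja1 reversed under quantile normalization (-0.0113) and median-ratio scaling (-0.0016). Leaving out 1 sample also turned the sign of some log2 fold changes, which then ranged from -0.0027 to 0.0297 for Gja1, -0.1094 to 0.0818 for Apoe, -0.0686 to 0.2179 for Hes5, -0.0943 to 0.0066 for Id4, -0.1183 to 0.0517 for Vim, -0.0416 to 0.1256 for Cbs, -0.0690 to 0.0279 for Dio2, -0.0226 to 0.1816 for F3, -0.0751 to 0.3751 for Mobp and -0.2357 to 2.1667 for Ttr. On the log2(RPKM + 1) scale, leaving out 1 sample also took each of the 5 genes beyond 1.2-fold under it. The ranges were 0.1910 to 0.4577 for Gjb6, 0.2604 to 0.3662 for Mfge8, -0.3623 to -0.2551 for Slc25a18, -0.3086 to -0.2392 for Slc14a1 and -0.3353 to -0.2158 for Bmpr1b. These ranges do not show that ratios of RPKM fell under 1.2-fold, as those were not recomputed. Without 1 sample, 15 to 17 genes were separated higher and 10 to 11 lower, which is larger by construction. The causes of the other changes were not tested. With the replicate block, 0 genes and 0 astrocyte genes were called, and the deviations of same-numbered samples correlated at -0.02, so the numbers were not treated as pairs.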
